A study of Arabidopsis thaliana with 6 samples.

Results

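Phenylpropanoid and flavonoid genes turn phenylalanine into the precursors of lignin, sinapate esters, flavonols and anthocyanins, and 10 of them were followed along the pathway in the H3K9Ac peak lists. They are PAL1, PAL2, CHS, CHI, F3H, F3'H, FLS1, DFR, LDOX and PAP1, 10 of the 27444 protein-coding genes on the 5 nuclear chromosomes of *Arabidopsis*. A gene was counted as marked when a peak overlapped its TAIR10 body or the 500 bp upstream of its start by at least 1 bp. The genes were listed by name with earlier results of these data known, and the rule itself used no measured value. H3K9Ac was measured by ChIP-seq in whole 3-day-old etiolated *ein2-5* seedlings, grown in the dark at 24 ºC and kept for 4 h in hydrocarbon-free air or in the same air with 10 ppm ethylene. Both groups carried *ein2-5*, a loss-of-function allele of EIN2, the membrane protein through which the ethylene signal passes, so neither group represents the wild-type response. The study made 2 H3K9Ac libraries and 1 control library per treatment, but peaks were called on the pooled libraries. Each treatment therefore had 1 list, with no spread between replicates, and no test of the difference between air and ethylene was possible.

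Acetylation of lysine 9 on histone H3 is found mostly just downstream of the start of transcribed genes. Phenylalanine ammonia-lyase, encoded by the PAL genes, makes cinnamate and opens the pathway. Chalcone synthase and chalcone isomerase (CHS, CHI) build the flavonoid skeleton, which is oxidised by F3H and F3'H and led either to flavonols by FLS1 or to anthocyanins by DFR and LDOX. PAP1 is a MYB factor that, with bHLH partners and the WD40 protein TTG1, switches on the anthocyanin branch. In seedlings, light strongly raises the transcription of this branch, and the seedlings here had been kept in the dark.

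The air list held 18314 peaks and the ethylene list 12864. From 45582654 H3K9Ac tags kept in air and 43572576 in ethylene, the peak caller scaled the data down to the smaller control, by 0.301 in air and 0.0999 in ethylene, because the ethylene control kept 4354374 tags against 13726993 in air. A lower scaling factor gives a less extreme p for the same tags, so the depth of the control and the treatment cannot be told apart in the number and breadth of peaks. At the gene level, 60.9% of coding genes had an air peak and 46.0% an ethylene peak. The 3 constitutive genes ACT2, UBQ10 and GAPC1 all carried a peak in both lists, and none of 6 flower and seed genes (AG, AP3, LEC1, FUS3, CRA1, SESA1) did in either.

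Of the 10 genes, 6 (60%) were marked by H3K9Ac in air and 2 (20%) in ethylene. The share in air was close to the 60.9% of all coding genes, and that in ethylene lay under the 46.0%. PAL2 and CHI had a peak in both lists. PAL1, F3H, F3'H and PAP1 had a peak in air only, which is 4 of the 6 marked in air, where 24.8% of all coding genes marked in air had none in ethylene. CHS, FLS1, DFR and LDOX had no peak in either list. No gene had a peak in ethylene only. The genes run from 1484 to 3389 bp, and of the 14114 coding genes of such length 69.1% were marked in air and 53.8% in ethylene.

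**Figure D1:**
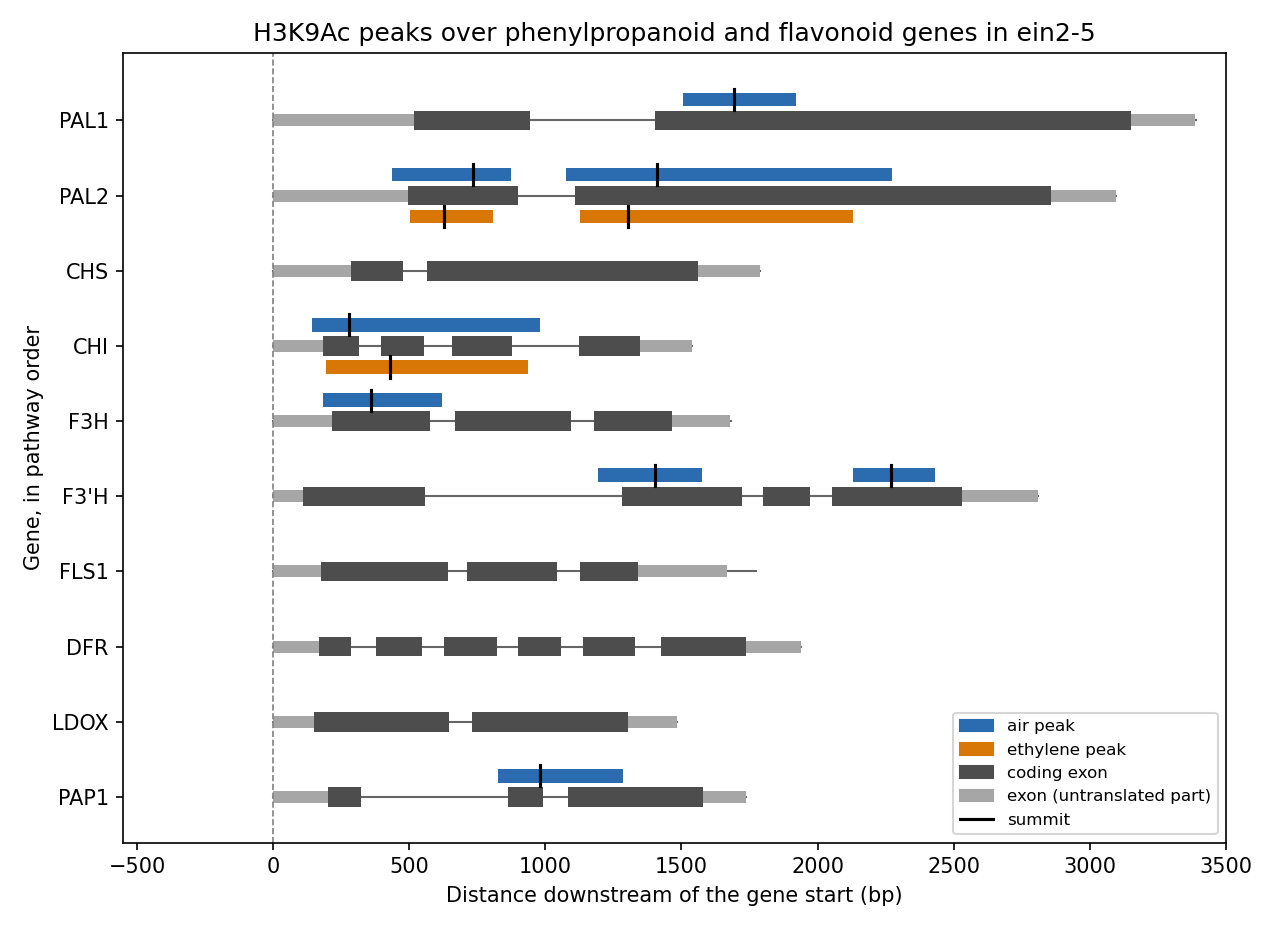
Each row is a gene drawn from its start to the right in bp, with coding exons dark, untranslated exon parts light and introns as lines. Air peaks lie above the gene, ethylene peaks below, and black ticks mark the summits. The 8 air peaks lie in 6 genes and the 3 ethylene peaks in PAL2 and CHI, all of them downstream of the gene start.

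PAL2 (AT3G53260, chr3:19744018-19747114, minus strand) had the broadest mark of the 10 genes in both lists, with the most tags and the largest fold enrichment at its summit. Its main air peak, 1199 bp from 19744841 to 19746039, had its summit at 19745702 in exon 2, 1412 bp downstream of the start, with 381 H3K9Ac tags there and a fold enrichment of 3.51 over the local background. A shorter air peak of 439 bp (19746240 to 19746678) had its summit at 19746378 in exon 1, with 263 tags and a fold enrichment of 2.06. Both recurred in ethylene. The ethylene peak over exon 2 was 1004 bp long (19744985 to 19745988), with 380 tags at its summit at 19745811 and a fold enrichment of 2.78. The ethylene peak over exon 1 was 305 bp long (19746307 to 19746611), with 247 tags at 19746486 and a fold enrichment of 2.04.

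Summed over its peaks, the breadth of PAL2 came to 1638 bp in air against 1309 bp with ethylene, a difference of -329 bp. The median over the 12582 coding genes marked in both lists was -259 bp, and 96.7% of them were narrower in ethylene. At the highest summit, the fold enrichment was 3.51 in air against 2.78 with ethylene. The medians over coding genes marked in each list were 2.43 and 2.22. The peak caller adds 1 to the scaled signal and background, so fold enrichment also depends on the scaling factor. The tags at that summit of PAL2 were 381 and 380, both close to the 400 that the peak caller can count at a point, so they say little about a change. Their ratio, ethylene over air, per H3K9Ac tag kept and corrected for that ceiling, was 1.03 (95% interval 0.84 to 1.26, counting error only), beside a median of 1.04 over all genes marked in both. In air, 99.3% of marked coding genes had fewer tags at their highest summit and 94.5% had narrower peaks than PAL2.

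PAL1 (AT2G37040, chr2:15557367-15560755, minus strand), the close paralog of PAL2, stood at the other end. A single air peak of 415 bp (15558835 to 15559249) covered 12.2% of the gene, and its summit at 15559062 held 151 tags, with a fold enrichment of 1.79. Of the marked coding genes, 1.03% had fewer tags at the highest summit. No ethylene peak overlapped PAL1. The summit of PAL1 lay in exon 2 at coding base 718, and the main PAL2 air summit at a base that aligns with PAL1 coding base 732, so the summits were 14 coding bases apart. The coding sequences, 2178 bases in PAL1 and 2154 in PAL2, were 84.0% identical over 2147 aligned bases. Reads had been kept only when they mapped to 1 place, and 99.2% of the 51-base windows of either gene and its upstream 500 bp occurred once in the genome. Of the 365 such windows within the PAL1 peak, 3 differed from PAL2, PAL3 or PAL4 by 2 bases or fewer, and the median was 9 mismatches. Whether mismatched reads of PAL2 contributed to the PAL1 peak was not tested.

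The sequences around the highest air summit of each marked gene are shown because this is where the mark was measured. Each run gives 101 bases of the coding strand, 5′ to 3′, from the TAIR10.1 genome (RefSeq), with the summit base in capitals.
PAL1 air summit (chr2:15559012-15559112, minus strand): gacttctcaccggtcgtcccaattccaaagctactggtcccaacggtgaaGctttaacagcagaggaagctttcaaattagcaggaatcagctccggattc
PAL2 air summit (chr3:19745652-19745752, minus strand): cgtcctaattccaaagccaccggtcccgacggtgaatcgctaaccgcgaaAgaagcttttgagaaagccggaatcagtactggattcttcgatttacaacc
CHI air summit (chr3:20431270-20431370, minus strand): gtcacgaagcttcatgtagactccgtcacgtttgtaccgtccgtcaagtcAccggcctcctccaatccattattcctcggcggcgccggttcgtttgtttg
F3H air summit (chr3:19025500-19025600, plus strand): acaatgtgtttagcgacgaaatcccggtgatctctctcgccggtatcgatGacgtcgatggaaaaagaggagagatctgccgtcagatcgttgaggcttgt
F3'H air summit (chr5:2561679-2561779, plus strand): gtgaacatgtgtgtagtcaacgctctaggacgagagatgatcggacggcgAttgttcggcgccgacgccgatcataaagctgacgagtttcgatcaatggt
PAP1 air summit (chr1:21234261-21234361, minus strand): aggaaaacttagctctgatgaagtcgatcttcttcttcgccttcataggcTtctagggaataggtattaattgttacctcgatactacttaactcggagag

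CHI (AT3G55120, also TT5, chr3:20430059-20431597, minus strand) was the other gene marked in both lists. Its air peak of 837 bp (20430617 to 20431453) had 217 tags at the summit at 20431320, in exon 1, with a fold enrichment of 2.29. In ethylene the peak was 743 bp long (20430662 to 20431404), with 207 tags at 20431168, in exon 2, and a fold enrichment of 2.17. The peaks covered 54.4% of the gene in air and 48.3% in ethylene. The breadth differed by -94 bp, a smaller fall than in most coding genes marked in both lists, whose quartiles were -454 and -142 bp. The ratio of summit tags was 0.975 (95% interval 0.802 to 1.18). Over PAL2 and CHI the median difference of breadth was -212 bp and the median ratio of tags 1.00. CHI had few tags for its breadth in air: 64.9% of marked coding genes were narrower, while 17.0% had fewer tags and 38.9% a lower fold enrichment. Its breadth lay within the quartiles of marked coding genes, 498 and 996 bp.

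F3'H (AT5G07990, also TT7, chr5:2560328-2563137, plus strand), the hydroxylase that leads to quercetin and cyanidin, had 2 air peaks and none in ethylene. The peak over exon 2 was 381 bp long (2561523 to 2561903), with 261 tags at its summit at 2561729 and a fold enrichment of 2.49. The peak over exon 4 was 302 bp long (2562459 to 2562760), with 228 tags at 2562596 and a fold enrichment of 1.99. Over marked coding genes in air, the median at the highest summit was 274 tags and a fold enrichment of 2.43. The lower quartiles were 234 and 2.09. The exon 2 peak, which holds the highest summit of F3'H, lay near these medians. The exon 4 peak lay under both lower quartiles, but these count only the highest summit of each gene. The nearest ethylene peak lay 534 bp downstream, at AT5G08000.

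F3H (AT3G51240, chr3:19025192-19026872, plus strand), the hydroxylase that makes dihydroflavonols, had an air peak of 438 bp (19025375 to 19025812), with 188 tags at the summit at 19025550 in exon 1 and a fold enrichment of 1.92. The peak also overlapped AT3G51238, a noncoding gene on the other strand, and ChIP reads cannot be told apart by strand. PAP1 (AT1G56650, chr1:21233555-21235292, minus strand) had an air peak of 461 bp (21234007 to 21234467), with 166 tags at 21234311 in exon 2 and a fold enrichment of 1.89. Neither gene had an ethylene peak, and the nearest to PAP1 lay 18159 bp away. Summit tags in F3H, PAP1 and PAL1 were under the lower quartile of marked coding genes in air, 234 tags, and their fold enrichment was under the lower quartile of 2.09.

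**Figure D2:**
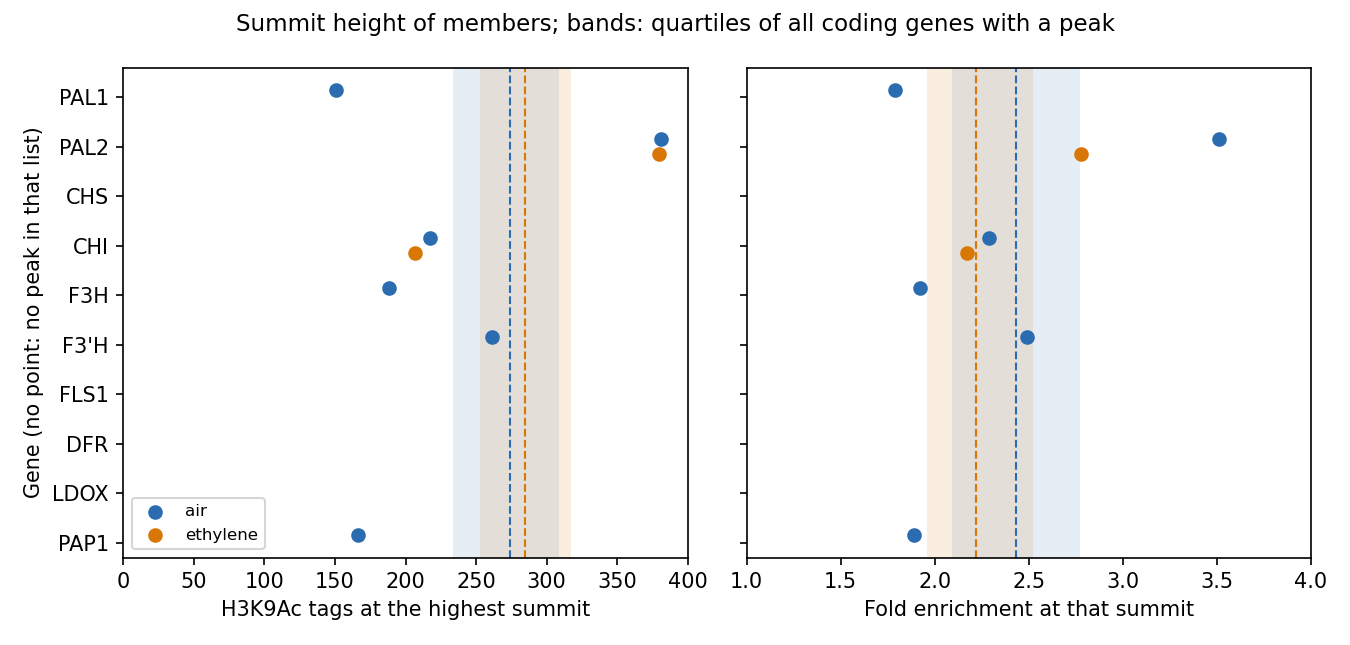
H3K9Ac tags (left) and fold enrichment (right) at the highest summit of each gene, with air in blue and ethylene in orange. Bands span the quartiles and dashed lines mark the medians of all coding genes with a peak, and a gene without a point had no peak. PAL2 lies above both bands with 381 and 380 tags. CHI lies below the bands of tags with 217 and 207, but inside those of fold enrichment. PAL1, F3H and PAP1 have the fewest tags in air.

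To see how far the scaling bears on the genes marked in air only, the p of each air peak was recomputed with the same tags and background at the scaling factor of the ethylene list, where the limit of the peak caller is 2 on the −log10 scale. Only the summit of each peak was recomputed, and whether a stretch long enough for a call would remain was not tested. PAL1 fell from 3.97 to 1.95, under the limit. PAP1 came to 2.12 and F3H to 2.31, just above it. The F3'H peaks came to 4.98 and 2.84. For comparison, PAL2 came to 10.77 and 3.54 and CHI to 3.57, and these genes did have an ethylene peak. Over the whole list 87.7% of air peaks stayed at or above the limit, 97.3% of those that overlapped an ethylene peak and 68.2% of those that did not. Of the 7267 air peaks with a rescaled value at or above the 4.98 of F3'H, 7.77% overlapped no ethylene peak. Of the 13547 at or above the 2.84 of its second peak, 18.4% overlapped none. Both classes are open upward, so each F3'H peak stands at the weak end of its class. The share among peaks of like value was not computed. Among coding genes with air summit tags between 151 and 261, the range of the 4 genes marked in air only, 45.8% had no ethylene peak, and among those with a fold enrichment in the range of these genes, 1.79 to 2.49, 32.4% had none. The lists give no tags where no peak was called, so the level of these genes in ethylene is not known.

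**Figure D3:**
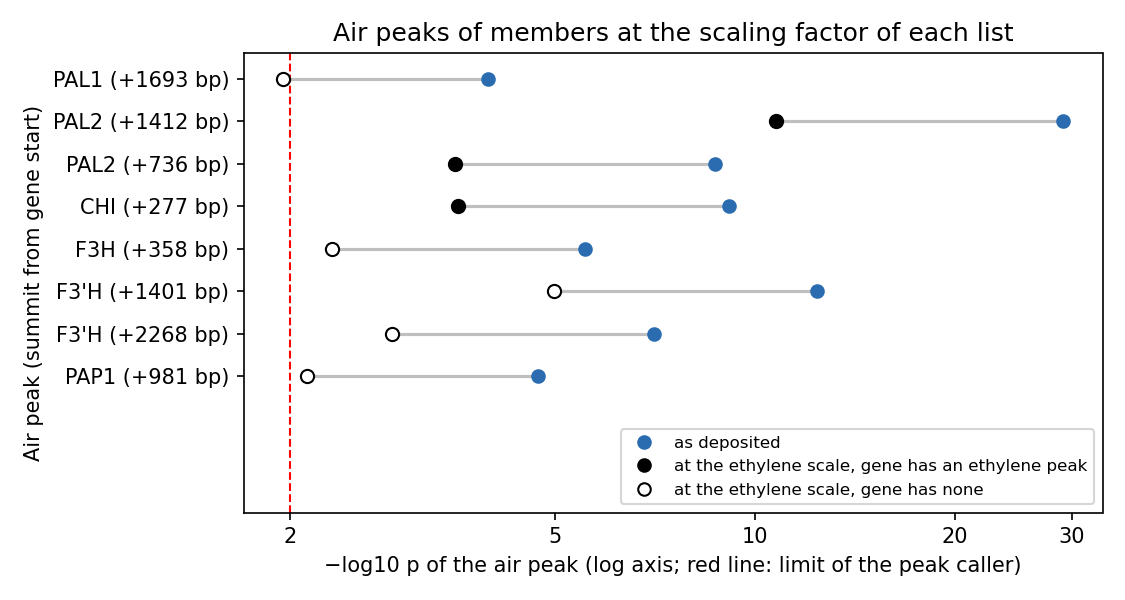
The −log10 p at each air summit as deposited (blue) and recomputed at the scaling factor of the ethylene list (black), on a log axis. Black points are filled for genes that had an ethylene peak and open for those that had none. The dashed red line is the limit of 2. PAL1 falls to 1.95, PAP1 and F3H stay just above the limit, and the F3'H peak at +1401 bp stays at 4.98 without a peak in the ethylene list.

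The position of the mark within these genes varied. Over all coding genes marked in air, the highest summit lay a median of 320 bp downstream of the start, with quartiles of 229 and 457 bp. CHI, at 277 bp, and F3H, at 358 bp, lay within these quartiles. PAP1 had its summit at 981 bp, F3'H at 1401 bp, PAL2 at 1412 bp and PAL1 at 1693 bp. Thus 3 of the 6 marked genes had their highest air summit beyond 1000 bp, a limit chosen after the values were seen, against 5.98% of all marked coding genes and 6.40% of the 9753 in the same range of length. In all of them the summit fell in a coding exon. The peak edge nearest to a gene start was that of CHI in air, 144 bp downstream. No peak therefore reached the start or the promoter of any of the 10 genes. In most of the further pathway genes listed below, air peaks also began downstream of the start. The share over all marked coding genes was not computed.

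The 4 genes without a peak code for the first flavonoid step (CHS), the flavonol branch (FLS1) and consecutive steps towards anthocyanin (DFR, LDOX). CHS (AT5G13930, also TT4) lies at chr5:4488476-4490264 on the plus strand, FLS1 (AT5G08640) at chr5:2803833-2805606 on the plus strand, DFR (AT5G42800) at chr5:17164093-17166032 on the minus strand and LDOX (AT4G22880) at chr4:12004726-12006209 on the minus strand. Of the 51-base windows over these genes and their 500 bp upstream, 97.4% to 100% were unique, against 99.2% to 100% in the 6 marked genes, and the part of mapping in the missing peaks was not tested. All 4 shared an arrangement that the choice of genes did not use. Each has a divergent neighbour whose start lies 628 to 950 bp from its own and which had an air peak, whereas 5.28% of the coding genes without an air peak have such a neighbour within 1000 bp. This comparison was chosen after the values were seen.

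The neighbour of LDOX, AT4G22890, had the highest of these peaks, with 296 tags over 777 bp in air, and 294 tags over 345 bp in ethylene. At AT5G42810 (IPK1), next to DFR, the air peak had 237 tags over 477 bp, and the ethylene peak 246 tags over 301 bp. The peaks at AT5G13920, next to CHS, and at AT5G08630, next to FLS1, had 221 and 178 tags in air, and no ethylene peak lay over them. The peak edges came to 849 bp upstream of FLS1, 907 bp of DFR, 923 bp of LDOX and 1089 bp of CHS in air, outside the window of 500 bp. Among the marked genes only F3H has a divergent coding gene within 1000 bp, AT3G51230 at 840 bp, and it had no air peak. The share of all marked coding genes with a marked divergent neighbour was not computed.

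Promoters of the 10 genes, taken from 250 bases before to 50 after the start, were searched on both strands for sequences known from light and MYB control of this pathway. The G-box CACGTG was present in 4 of 10 (CHS, CHI, F3H, DFR), against 7.68% of 27443 promoters of coding genes. The shorter core ACGT, which the G-box contains, was present in 8 of 10 against 49.9%. Among the AC elements, ACCAACC was present in 3 of 10 (PAL1, PAL2, DFR) against 3.29%. Its matches began 38 bp after the start in PAL1, 3 bp after it in PAL2 and at -1 in DFR. ACCTACC (1.38% of promoters) and ACCTAAC (2.88%) were found in none. The G-box was thus held by genes with a peak (CHI, F3H) and by genes without one (CHS, DFR). A match is a description of the sequence and says nothing of binding. The 3 promoters whose G-box lies before the start are given below from TAIR10.1 (RefSeq) as the 250 bases before the start, 5′ to 3′ in the direction of the gene, because no peak reached any of them. Capitals mark ACGT and, at -233 in CHS, -249 in F3H and -14 in DFR, the whole G-box.
CHS promoter (chr5:4488226-4488475, plus strand): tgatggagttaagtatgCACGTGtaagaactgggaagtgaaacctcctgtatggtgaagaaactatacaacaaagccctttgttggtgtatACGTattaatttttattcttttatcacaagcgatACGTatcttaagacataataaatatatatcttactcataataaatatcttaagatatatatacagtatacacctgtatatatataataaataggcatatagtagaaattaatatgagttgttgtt
F3H promoter (chr3:19024942-19025191, plus strand): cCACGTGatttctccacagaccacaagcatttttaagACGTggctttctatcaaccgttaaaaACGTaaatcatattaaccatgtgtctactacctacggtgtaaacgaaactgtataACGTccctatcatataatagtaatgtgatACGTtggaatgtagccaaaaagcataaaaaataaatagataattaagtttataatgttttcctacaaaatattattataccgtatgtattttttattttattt
DFR promoter (chr5:17166033-17166282, minus strand): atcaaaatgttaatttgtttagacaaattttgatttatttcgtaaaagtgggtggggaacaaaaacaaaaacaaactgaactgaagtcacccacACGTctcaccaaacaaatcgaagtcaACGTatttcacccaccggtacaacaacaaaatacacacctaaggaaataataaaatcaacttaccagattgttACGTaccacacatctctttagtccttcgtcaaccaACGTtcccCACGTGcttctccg

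To place the 10 genes within the wider pathway, 64 further genes were listed by role, which gave 74 in all, and 38 of the 64 were marked in air and 32 in ethylene. The shares, 59.4% and 50%, lay near those of all coding genes (60.9% and 46.0%), but the roles differed widely. The genes of each role were chosen with earlier results of these data known, and the part of that choice in the differences was not tested. Among the other 7 genes at the entry, 3 were marked in air: 4CL1 (1074 bp in air, 779 bp in ethylene) and C4H (1011 bp and 392 bp) in both lists, and 4CL2 (937 bp) in air only. These code for 4-coumarate:CoA ligases and cinnamate 4-hydroxylase, the steps shared by lignin and flavonoids. PAL3, PAL4, 4CL3 and 4CL5 had no peak.

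Of the 3 other early flavonoid genes, FLS5 (1267 bp and 1162 bp) and FLS3 (808 bp and 494 bp), paralogs of FLS1, were marked in both lists, and CHIL, a noncatalytic relative of CHI, in neither. BAN, the anthocyanidin reductase of the seed coat, had no peak, as DFR and LDOX had none, so 0 of 3 genes of the late branch were marked. Among 15 genes for decoration and transport, 5 were marked in air and 3 in ethylene (33.3% and 20%, against 60.9% and 46.0% of all coding genes). The broadest were the UDP-glycosyltransferase gene AT1G06000 (1291 bp and 900 bp), the serine carboxypeptidase-like gene AT2G23000 (738 bp in air only) and RHM1, a rhamnose synthase gene (557 bp in air only). UGT79B1, GSTF12, TT12, AHA10 and TT10 were among the 10 without a peak.

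Activators of flavonoid genes carried few marks. Of 14, PAP1 included, 4 were marked in air and 1 in ethylene (28.6% and 7.14%, against 60.9% and 46.0% of all coding genes). TTG1, the WD40 partner of PAP1, was marked in both lists (928 bp and 703 bp), and the bHLH genes EGL3 (487 bp) and GL3 (275 bp) in air only, as PAP1 was. The MYB genes PAP2, MYB113 and MYB114, related to PAP1, and the flavonol regulators MYB11, MYB12 and MYB111 had none. Nor did TT8, or TT1, TT2 and TT16, which act in the seed coat. Of the 51-base windows of TT8 and its upstream 500 bp, 85.5% were unique, and the part of mapping was not tested.

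All 12 genes listed as negative regulators were marked in air and 11 in ethylene, beside 60.9% and 46.0% of all coding genes. The exception in ethylene was SPL9 (531 bp in air only). The broadest were the kelch F-box genes KFB50 (AT3G59940, 1999 bp and 1289 bp), AT2G44130 (1886 bp and 1672 bp) and KFB20 (AT1G80440, 1410 bp and 525 bp). The KFB50 and AT2G44130 air peaks ran 457 and 409 bp beyond the gene, over AT3G59950 and AT2G44140, so part of that breadth is shared with neighbours. The median of their air breadth was 1162 bp, against 678 bp over all marked coding genes, and the median of their summit tags 344, against 274. All 13 genes of the lignin and sinapate branch were marked in both lists, beside the same shares of all coding genes. SNG1, which makes sinapoylmalate, reached 3204 bp in air against 583 bp with ethylene, REF1 1453 bp and 730 bp, and UGT84A2 1435 bp and 359 bp. The SNG1 sum includes an air peak of 883 bp that lies upstream of the gene, 647 bp of it outside the window. The median breadth of this branch was 1022 bp in air against 497 bp with ethylene, and all 13 were narrower in ethylene, beside the 96.7% of all coding genes marked in both. Median summit tags of the branch were 288 in either list.

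**Figure D4:**
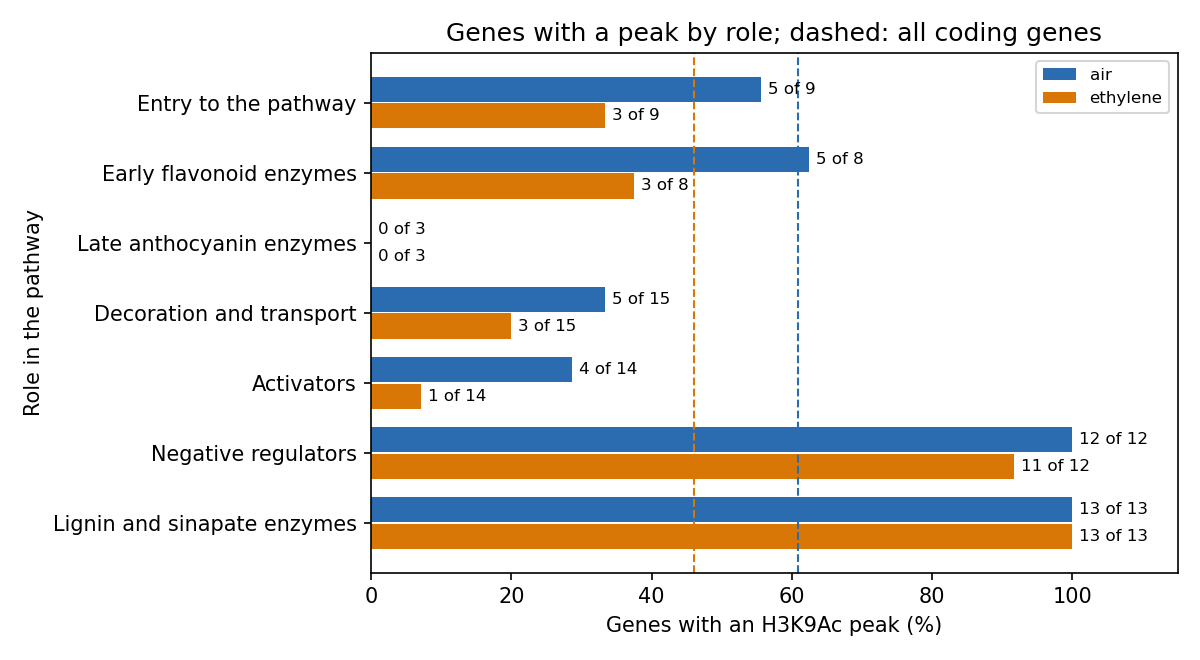
Share of the genes of each role with an H3K9Ac peak in air (blue) and ethylene (orange), in percent, with the counts beside the bars and the 10 genes included in their roles. Dashed lines mark all coding genes, at 60.9% in air and 46.0% in ethylene. The group labelled late anthocyanin enzymes holds DFR, LDOX and BAN, the anthocyanidin reductase of the seed coat. It stands at 0 of 3 in both lists, and lignin and sinapate enzymes at 13 of 13.

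**Figure D5:**
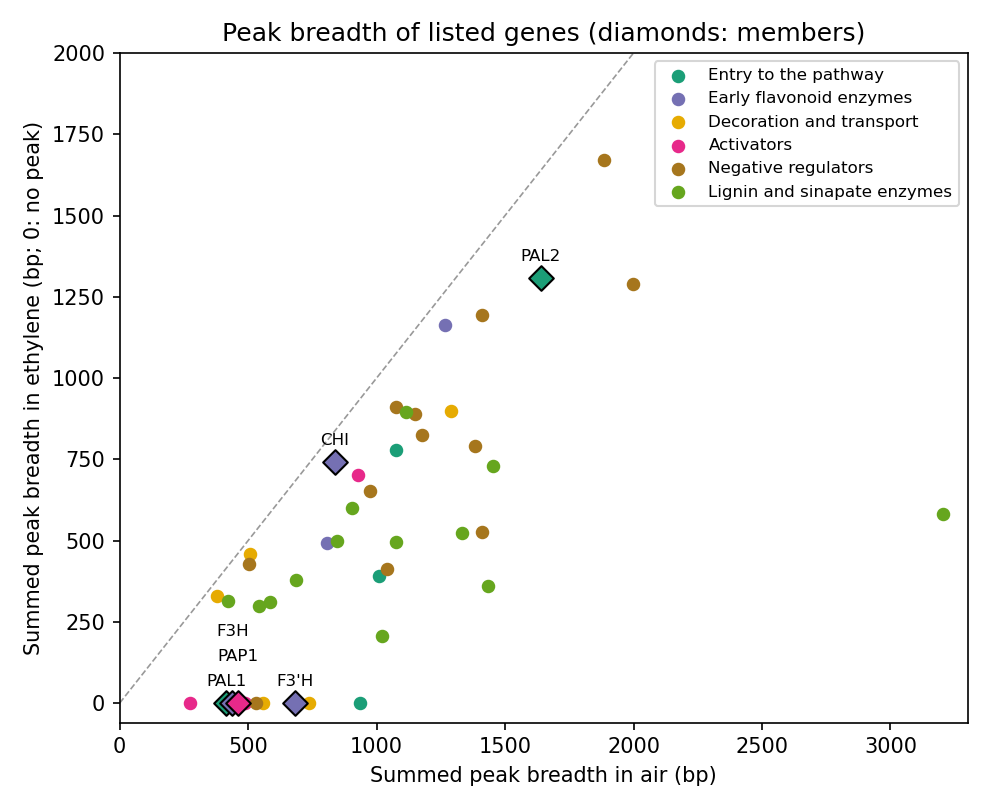
Summed peak breadth in ethylene against that in air, in bp, for the 44 listed genes with an air peak, coloured by role, with the 6 marked genes of the 10 as diamonds. Genes at 0 on the vertical axis had no ethylene peak, and the dashed line marks equal breadth. All genes lie under the line, with CHI closer to it than PAL2, and PAL1, F3H, F3'H and PAP1 lie at 0.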

How the data were processed

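Reads of the H3K9Ac and control libraries (controls are IgG by title and Protein G beads by antibody in the labels) had been mapped to TAIR10 by the authors, with Bowtie 1.1.2 in the submitters' processing notes, then pooled by treatment and passed to MACS2 2.1.0.20150603 with a limit of p = 0.01, no fragment model and tags extended to 200 bp. The deposited lists give the position and length (bp) of every peak, its pileup signal at the summit after scaling, its fold enrichment as a ratio over the local background, and its significance as −log10 p. A further deposited column, a score on the −log10 q scale, is filled although the file headers call q-values not reported, and it served only for a stricter threshold.

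Gene models and sequence came from TAIR10.1 (RefSeq). As a check of the coordinates, 63.9% of air peaks overlapped the first 200 bp of a coding gene, 42.9% when shifted by -250 bp and 41.8% by 250 bp. Summit tags are the pileup over the scaling factor, and the background follows from pileup and fold enrichment. Recomputed from these, the Poisson −log10 p came within 0.02 of the deposited one in 99.3% of the air list and 100% of the ethylene list. MACS2 had kept 1 tag per position and strand, which sets a ceiling of 400 tags at any point, and ratios of tags were corrected for it. Their 95% intervals assume binomial counting over the 400 positions, cover counting error only and ignore the spread between seedlings. The breadth of a gene is the summed length of its peaks.

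The 10 genes and the lists by role (74 genes) were chosen with earlier results of these data known. All 10 are named. From each role, up to 3 genes with the largest air breadth are named, and any gene without an air peak may be. GL3, SPL9 and the neighbouring genes fall outside this rule and were named after their values were seen. The steps were tested on simulated data, with Python 3.11.15, pandas 2.3.3, NumPy 2.4.6, SciPy 1.17.1, Biopython 1.88 and matplotlib 3.10.9. Alternatives covered window, overlap, assignment, thresholds, the length of the air list and, chosen after seeing the data, its scaling.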

Additional observations from a re-analysis of the deposited data

How the results depend on the processing

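The count of 6 genes marked in air stayed at 6 with the gene body only, with the summit inside the window, with an overlap of at least 200 bp, with each peak given to the nearest gene within 5 kb, and with a q-value of at most 0.01. Every air peak of these genes lay inside the gene and was at least 302 bp long, so the settings of body, summit and overlap could not lower the count. It fell to 3 (PAL2, CHI, F3'H) with a fold enrichment of at least 2 (49.8% of coding genes). The same 3 remained with the air list shortened to the 12864 peaks of lowest p. At the scaling of the ethylene control the count was 5 (without PAL1, 57.0% of coding genes), judged by the summit p alone. That alternative was chosen after seeing the data. In the shortened list 48.3% of coding genes were marked. A window of 1000 bp took in the neighbours' peaks and gave 9 genes in air and 4 in ethylene, beside 63.4% and 48.5% of coding genes. With a q-value of at most 0.01, 1 gene (PAL2) was marked in ethylene instead of 2, and 31.6% of coding genes. The median breadth difference was -212 bp under every alternative run. It rests on PAL2 (-329 bp) and CHI (-94 bp) alone. None of those alternatives removed or trimmed a peak of either gene, so they could not have moved it. The median tag ratio of 1.00 became 1.02 without the ceiling correction. As a ratio of fold enrichment, which also depends on the scaling factor, it was 0.871. No paired analysis was possible because the libraries of a treatment were pooled before peaks were called, and for the same reason no library could be left out. Depth limits what a missing peak means: it is a p above the limit, not an absence of H3K9Ac.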
